A study of Mus musculus with 88 samples.

Results

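The Btg and Tob genes encode a small family of antiproliferative proteins, and the nuclear transcripts of 5 of them, *Btg1*, *Btg2*, *Btg3*, *Tob1* and *Tob2*, were followed here through fear learning and through a corticosterone injection in the mouse brain. The 5 genes were taken as the rows of the gene tables whose Ensembl identifiers carry these symbols in the GENCODE vM21 annotation, 5 of 53749 identifiers. All mice were male C57BL/6J of 4 months. In the first experiment, mice were left in the home cage (naive) or killed 10 min (CFC10) or 30 min (CFC30) after they entered the chamber for contextual fear conditioning (CFC), in which a mouse learns to associate a new chamber with foot shocks. Fixed nuclei of hippocampus and of medial prefrontal cortex (mPFC) were sorted into neuronal (NeuN+) and non-neuronal (NeuN-) fractions. In the second experiment, mice received corticosterone at 2 mg/kg or saline and were killed 30 min later. The hormone was given as a corticosterone:HBC complex and the controls received saline, so hormone and HBC cannot be told apart. Hippocampal nuclei were sorted into NeuN+ nuclei, astrocytic GFAP+ nuclei, microglial PU.1+ nuclei and a remainder negative for these markers (3X-), which is enriched in oligodendrocytes. There were 4 libraries per hippocampal and hormone group, except 3 for naive NeuN- hippocampus, and 3 per mPFC group, 73 in all, since a pair of naive NeuN- hippocampal libraries held identical values, less apart than sampling noise, and was counted as 1 sample. Groups are those of the labels, and p-values measure the spread between these libraries.

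BTG and TOB proteins share an amino-terminal BTG domain that binds CNOT7 and CNOT8, catalytic subunits of the CCR4-NOT complex, which shortens the poly(A) tails of mRNAs. TOB1 and TOB2 carry a longer carboxy-terminal part that also contacts the poly(A)-binding protein PABPC1. In cultured cells these proteins slow the passage from G1 into S phase. *Btg2* is a known target of p53 and an early response gene, induced by growth factors and by neuronal activity. The family has a further mouse gene, *Btg4*, known for clearing maternal mRNAs in the oocyte.

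The promoters are shown because *Btg2*, *Tob1* and *Tob2* moved after CFC while their promoter letters differ. Each is 300 bases of RefSeq on GRCm38.p6, from 250 bases before to 50 after the start that RefSeq annotates, read 5′ to 3′ on the strand of the gene, with the letters TGACG or their complement CGTCA, the cyclic AMP half-site, in capitals. The windows are chr1:134079106-134079405 on the minus strand for *Btg2*, chr11:94211204-94211503 on the plus strand for *Tob1* and chr15:81858277-81858576 on the minus strand for *Tob2*. RefSeq and GENCODE do not place every start at the same base, and the *Tob2* window lies wholly inside the GENCODE gene, whose start on that strand is at 81858796.
Btg2: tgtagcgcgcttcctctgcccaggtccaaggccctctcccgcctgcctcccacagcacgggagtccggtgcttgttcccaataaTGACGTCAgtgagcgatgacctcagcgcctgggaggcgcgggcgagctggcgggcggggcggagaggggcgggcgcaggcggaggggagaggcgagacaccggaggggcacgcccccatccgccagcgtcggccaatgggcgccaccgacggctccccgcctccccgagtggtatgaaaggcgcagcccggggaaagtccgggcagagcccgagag
Tob1: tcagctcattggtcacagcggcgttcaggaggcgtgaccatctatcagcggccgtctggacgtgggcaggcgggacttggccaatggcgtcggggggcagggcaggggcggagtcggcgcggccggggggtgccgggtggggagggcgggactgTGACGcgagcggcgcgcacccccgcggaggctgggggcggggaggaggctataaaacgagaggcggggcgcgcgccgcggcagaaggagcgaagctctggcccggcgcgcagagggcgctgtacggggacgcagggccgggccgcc
Tob2: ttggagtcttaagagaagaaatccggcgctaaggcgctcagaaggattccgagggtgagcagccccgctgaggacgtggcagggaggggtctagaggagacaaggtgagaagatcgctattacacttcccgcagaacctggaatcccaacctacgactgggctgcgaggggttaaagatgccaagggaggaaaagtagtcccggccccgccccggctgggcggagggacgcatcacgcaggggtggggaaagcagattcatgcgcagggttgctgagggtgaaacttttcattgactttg

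The *Btg2* window held the full cyclic AMP response element TGACGTCA, a palindrome that contains the half-site on both strands, at position -166 from the RefSeq start. That element stood in 588 of 32851 mouse promoter windows of the same length, or 1.79%, counting both strands. *Tob1* held the half-site alone at position -96 and the letters TATAAA at position -47. The *Btg1* window, not shown, held half-sites on its other strand at positions -187 and -103 and TATAAA at position -26. The half-site occurs in 20.8% of promoter windows and TATAAA in 13.6%. The *Tob2* window at its RefSeq start held neither of them, and the stretch before the GENCODE start was not searched. No match to the AP-1 letters TGANTCA, which 7.81% of windows hold on either strand, was found in the windows of these 4 genes. Nor did these windows hold the CArG box, the EGR site, the heat shock element or the glucocorticoid response element, searched in the same way. Those stood in 1.63%, 3.47%, 7.86% and 0.475% of all windows.

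The RNA came from sorted nuclei, and reads were counted over whole gene bodies, introns included. Total counts per library ran between 10561897 and 18271372 in the hippocampal CFC libraries, between 10577263 and 16392677 in mPFC and between 5935395 and 12758257 in the hormone experiment. Every one of the 73 libraries held reads of all 5 genes: 12 to 142 reads for *Btg1*, 7 to 209 for *Btg2*, 30 to 216 for *Btg3*, 19 to 293 for *Tob1* and 32 to 591 for *Tob2*. Values are given per library as CPM (counts-per-million units, by library total), and as FPKM, the CPM divided by the gene body length in kilobases, where genes are compared. The sort labels were checked against marker lists. The median summed CPM of 6 neuronal markers was 356 in naive NeuN- and 5302 in naive NeuN+ nuclei of hippocampus, and 203 in naive NeuN- and 6248 in naive NeuN+ nuclei of mPFC. The 6 microglial markers together stood at a median of 4765 CPM in saline PU.1+ nuclei and 3.57 CPM in saline NeuN+ nuclei. Other contrasts were less sharp. The neuronal list had medians of 1185, 898 and 504 CPM in saline GFAP+, PU.1+ and 3X- nuclei, against 5139 CPM in saline NeuN+ nuclei. The astrocyte list had medians of 12178 CPM in saline GFAP+, 729 CPM in PU.1+ and 601 CPM in 3X- nuclei. So the glial populations held RNA of other cell types.

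*Btg1* (ENSMUSG00000036478) lies at chr10:96617006-96622809 on the plus strand of GRCm38 and *Btg2* (ENSMUSG00000020423) at chr1:134075170-134079120 on the minus strand. *Tob1* (ENSMUSG00000037573) lies at chr11:94211454-94215495 on the plus strand and *Tob2* (ENSMUSG00000048546) at chr15:81848272-81858796 on the minus strand. *Btg3* (ENSMUSG00000022863), at chr16:78332637-78377192 on the minus strand, is the longest of them at 44556 bp, and 27138 bp of it overlap *Cxadr* on the other strand. The strand setting of the counting is not given in the sources used here, so reads of *Btg3* and *Cxadr* may not be told apart. *Tob2* overlaps the antisense model *Gm49476* by 565 bp.

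The 5 genes were spread differently over the cell fractions before any treatment. In naive hippocampus, 5 of 5 differed between NeuN- and NeuN+ nuclei (edgeR quasi-likelihood test with Benjamini-Hochberg adjustment, adjusted p under 0.05, as throughout), where 70.8% of all genes tested did. *Tob2* was 4.55 times as high in NeuN- nuclei, log2 fold change 2.19 ± 0.128 (SE), adjusted p = 3.59e-15. *Tob1*, *Btg2* and *Btg1* were also higher in NeuN- nuclei, by 1.11, 0.65 and 0.59 on the log2 scale, the call for *Btg2* being lost without replicate 2 (0.51). *Btg3* was lower there, at -1.20 on that scale (adjusted p = 2.1e-07).

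In naive mPFC, 4 of the 4 genes that passed the filter on low values were higher in NeuN- than in NeuN+ nuclei, where 69.5% of genes tested differed. The filter required a group mean above 0.2 FPKM. *Btg1* differed by 2.71 ± 0.235 on the log2 scale (adjusted p = 1.68e-10), with 12.2, 11.7 and 10.5 CPM in NeuN- libraries and 1.03, 1.16 and 1.45 CPM in NeuN+ libraries. *Btg2*, *Tob2* and *Tob1* differed by 1.92, 1.90 and 0.77. *Btg3*, a long gene with few reads per kilobase, did not pass the filter in mPFC and stood at 5.73, 6.36 and 8.60 CPM in naive NeuN- and 5.00, 4.90 and 4.68 CPM in naive NeuN+ libraries, values on the plain CPM scale only. Plain CPM ratios between these fractions lay 0.33 higher in hippocampus and 0.39 higher in mPFC, as the median log2 value over all genes, than the normalised changes given here, and each member tested kept its direction on both scales.

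Saline-treated hippocampus resolved the non-neuronal nuclei further, and the members were unequally spread over them. *Btg2* was highest in microglia: PU.1+ nuclei held 24.7, 24.5, 23.5 and 24.9 CPM and 3X- nuclei 3.02, 1.62, 2.11 and 2.2 CPM. No library of one population reached the range of the other, and the fold difference was 9.36 (log2 3.23 ± 0.154, adjusted p = 5.35e-16). Per length, the mean *Btg2* level of 6.18 ± 0.157 FPKM (SD, n = 4) in saline PU.1+ nuclei was above that of any other member in any population at baseline. *Btg1*, best known as a gene of lymphocytes and other blood cells, came next in PU.1+ nuclei at 2.88 ± 0.235 FPKM.

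*Tob1* ran the other way, with 2.55, 2.93, 2.44 and 3.13 CPM in PU.1+ nuclei and 23.4, 17.5, 19.2 and 21.6 CPM in 3X- nuclei. The difference was -3.08 ± 0.140 on the log2 scale (adjusted p = 1.79e-16), again with no overlap. GFAP+ nuclei held 17.3, 18.5, 16.0 and 17.3 CPM of *Tob1*, -0.31 against 3X- nuclei (adjusted p = 0.0106) in ranges that overlapped, and this difference was no longer called without replicate 1, 3 or 4 (log2 -0.30 to -0.23).

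*Tob2* was high in both GFAP+ and 3X- nuclei, with a difference of 0.06 between them (95% interval -0.14 to 0.26, adjusted p = 0.649), and lower in PU.1+ nuclei by 0.94 against 3X- (log2 fold change -0.94, adjusted p = 1.86e-08). Counted over the 5 genes, 5 differed between PU.1+ and 3X- nuclei (63.4% of all genes tested), 3 between GFAP+ and 3X- nuclei (54.7%) and 3 between GFAP+ and PU.1+ nuclei (68.0%). Against saline NeuN+ nuclei, 5 differed in GFAP+ nuclei (64.4% of all genes), 5 in PU.1+ nuclei (72.3%) and 4 in 3X- nuclei (65.1%). In saline NeuN+ nuclei the order per length was *Tob1* (1.05 FPKM), *Btg2* (0.775), *Btg1* (0.570), *Tob2* (0.547) and *Btg3* (0.228), with *Btg1* and *Tob2* within their SDs of 0.215 and 0.0909. *Btg3* was lower than in saline NeuN+ nuclei in GFAP+ (log2 fold change -0.85), PU.1+ (-0.52) and 3X- nuclei (-1.09), although its range overlapped between NeuN+ nuclei and both GFAP+ and PU.1+ nuclei. On the plain CPM scale the same *Btg3* differences were -0.48, -0.04 and -0.82, so that the PU.1+ level was 0.975 times the NeuN+ level. The PU.1+ call for *Btg3* was lost without replicate 2 or 3 (-0.43 to -0.35) and that for *Btg2* in GFAP+ nuclei (0.57) without replicate 3 (0.46). Plain CPM ratios against NeuN+ nuclei lay 0.23, 0.29 and 0.16 higher in GFAP+, PU.1+ and 3X- nuclei than the normalised changes, and 0.13 higher between PU.1+ and 3X- nuclei. *Btg1* in 3X- against NeuN+ nuclei (-0.15, adjusted p = 0.534) was the one member value whose direction differed between the scales.

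CFC was followed within 10 min by an increase of *Btg2* in neurons of both regions, against home-cage mice. No RNA group entered the chamber without shocks, so handling, the new chamber, the shocks and learning cannot be told apart. In hippocampal NeuN+ nuclei *Btg2* stood at 2.50, 2.10, 2.29 and 2.37 CPM in naive libraries, 6.23, 4.85, 4.77 and 4.98 CPM at 10 min and 2.32, 2.25, 2.94 and 2.79 CPM at 30 min. Every 10 min library was above every naive and every 30 min library, while the 30 min and naive ranges overlapped. The 10 min level was 2.2 times that of naive nuclei (log2 1.14 ± 0.142, adjusted p = 7.67e-05), and the 30 min level was lower than the 10 min level by 0.99 on the log2 scale (log2 fold change -0.99 ± 0.137, adjusted p = 0.000863). At 30 min the change over naive was 0.15 (95% interval -0.19 to 0.50, adjusted p = 0.645). Both comparisons use the same naive libraries, here and below. In sorted bulk nuclei, a change in the mix of cell types and a change of RNA per nucleus cannot be told apart, here and in the other fractions.

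In mPFC NeuN+ nuclei the *Btg2* change was larger. *Btg2* stood at 1.46, 0.581 and 0.807 CPM in naive libraries, 10.1, 9.50 and 7.43 CPM at 10 min and 2.48, 2.68 and 3.80 CPM at 30 min, and the 3 ranges did not overlap. The naive values rest on only 17, 7 and 10 reads. The 10 min level was 9.45 times the naive level (log2 3.24 ± 0.230, 95% interval 2.76 to 3.71, adjusted p = 6.21e-10) and had rank 6 by fold among 1063 genes called higher. The 30 min level was 3.15 times the naive level (log2 1.65 ± 0.288, adjusted p = 0.000135) and lower than at 10 min by 1.59 (log2 fold change -1.59 ± 0.170, adjusted p = 3.8e-06).

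The region difference was tested directly, as the change over naive in mPFC minus that in hippocampus. For *Btg2* in NeuN+ nuclei it was 2.08 ± 0.298 at 10 min (adjusted p = 0.000536), rank 1 of 64 genes called with a greater change in mPFC, and 1.5 ± 0.332 at 30 min (adjusted p = 0.00993). At each time *Btg2* was the 1 of 5 members called, where 0.705% of genes tested were called at 10 min and 2.30% at 30 min. The 30 min difference was no longer called without replicate 2 or without replicate 3 (log2 1.28 to 1.33). Both differences rest in part on the low naive level in mPFC. Mean *Btg2* in naive NeuN+ nuclei was 0.951 CPM in mPFC and 2.32 CPM in hippocampus. At 10 min the means were 9.01 and 5.21 CPM. The hippocampal libraries were made with version 2 and the mPFC libraries with version 1 of the same library kit, so region and kit version cannot be told apart. In NeuN- nuclei the same differences were 0.18 ± 0.251 at 10 min and 0.26 ± 0.250 at 30 min (adjusted p of 0.981 or above).

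*Tob2* rose at 10 min in neurons of both regions by nearly the same factor. In hippocampal NeuN+ nuclei it stood at 2.67, 3.90, 3.68 and 4.31 CPM in naive libraries, 7.55, 7.87, 7.71 and 7.61 CPM at 10 min and 4.30, 4.74, 5.02 and 3.23 CPM at 30 min. The 10 min libraries lay close together and above all others, 2.05 times the naive level (log2 1.03 ± 0.133, adjusted p = 0.000105). By 30 min *Tob2* was lower than at 10 min (-0.81 ± 0.127, adjusted p = 0.00334), and its change over naive was 0.23 (adjusted p = 0.386).

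In mPFC NeuN+ nuclei *Tob2* stood at 4.39, 4.48 and 3.71 CPM in naive libraries, 7.86, 9.57 and 6.96 CPM at 10 min and 4.75, 4.82 and 5.82 CPM at 30 min. The 10 min level was 1.95 times the naive level, with no overlap (log2 0.96 ± 0.147, adjusted p = 6.63e-05). The difference of this change between mPFC and hippocampus was -0.09 (95% interval -0.51 to 0.33, adjusted p = 0.984). At 30 min *Tob2* was lower than at 10 min by 0.66 (log2 fold change -0.66 ± 0.135, adjusted p = 0.0117), and this call was lost with DESeq2 and without CFC10 replicate 2, CFC30 replicate 1 or CFC30 replicate 2 (log2 -0.62 to -0.52).

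*Tob1*, a close relative of *Tob2*, had smaller fitted changes in neurons. In hippocampal NeuN+ nuclei it stood at 4.59, 5.07, 4.58 and 4.31 CPM in naive libraries, 5.72, 7.51, 6.45 and 6.62 CPM at 10 min and 4.57, 5.08, 6.45 and 4.99 CPM at 30 min. The 10 min libraries were all above the naive ones, and the change was 0.45 ± 0.124 (adjusted p = 0.0397). The call was lost with DESeq2, and leaving out 1 library at a time ended it for 8 of 12 libraries, namely each naive library, CFC10 replicates 2 to 4 and CFC30 replicate 2 (log2 0.39 to 0.50).

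In mPFC NeuN+ nuclei *Tob1* stood at 6.98, 7.22 and 5.73 CPM in naive libraries, 7.94, 10.2 and 8.51 CPM at 10 min and 5.02, 5.43 and 5.27 CPM at 30 min. All 10 min libraries were above and all 30 min libraries below the naive range. The change was 0.43 ± 0.127 at 10 min (adjusted p = 0.0224), no longer called with DESeq2 or without naive replicate 3 or CFC10 replicate 2 (log2 0.32 to 0.33). At 30 min it was -0.32 ± 0.138 over naive (adjusted p = 0.0999, and -0.41 and called without naive replicate 3). Between 10 and 30 min *Tob1* fell by 0.75 (log2 fold change -0.75 ± 0.127, adjusted p = 0.00235), a call lost without CFC10 replicate 2 (-0.63).

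*Btg1* showed no call after CFC in any fraction in the main edgeR fits. Its values varied most in mPFC NeuN+ nuclei, with 1.03, 1.16 and 1.45 CPM in naive libraries, 1.16, 1.90 and 3.33 CPM at 10 min and 0.963, 1.04 and 0.930 CPM at 30 min. CFC10 replicate 1 lay inside the naive range and the other 10 min libraries above it. The change at 10 min was 0.80 ± 0.317 (adjusted p = 0.0975), and without CFC10 replicate 1 it was 1.07 and called. With no filter on low values edgeR also called it, at 0.82 (adjusted p = 0.0407). The change between 10 and 30 min was -1.09 ± 0.317 (adjusted p = 0.0878), or -1.36 and called without the same library. With no filter on low values it was -1.09 and called by edgeR (adjusted p = 0.01). At 30 min the change over naive was -0.29 (adjusted p = 0.625). In the other fractions the *Btg1* changes over naive lay between -0.27 and -0.03 (adjusted p of 0.331 or above). *Btg3* was tested in hippocampal NeuN+ nuclei, where it stood between 10.3 and 12.6 CPM in naive libraries, between 8.87 and 13.4 CPM at 10 min and between 8.24 and 12.3 CPM at 30 min, all overlapping, with changes of -0.03 and -0.13 over naive (adjusted p of 0.589 or above).

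Counted together, 3 of 5 members were called at 10 min in hippocampal NeuN+ nuclei, where 4.86% of 12429 genes tested were called, and 2 of 5 between 10 and 30 min, where 0.298% were. At 30 min 0 of 5 were called over naive, with no unadjusted p under 0.05 and 0 called by DESeq2, where 8.56% of genes were called. In mPFC NeuN+ nuclei 3 of the 4 members tested were called at 10 min (14.4% of genes tested), 1 of 4 at 30 min (24.7%) and 3 of 4 between 10 and 30 min (1.29%). In both regions the whole table had more calls at 30 min than at 10 min, while the members had fewer.

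**Figure D1:**
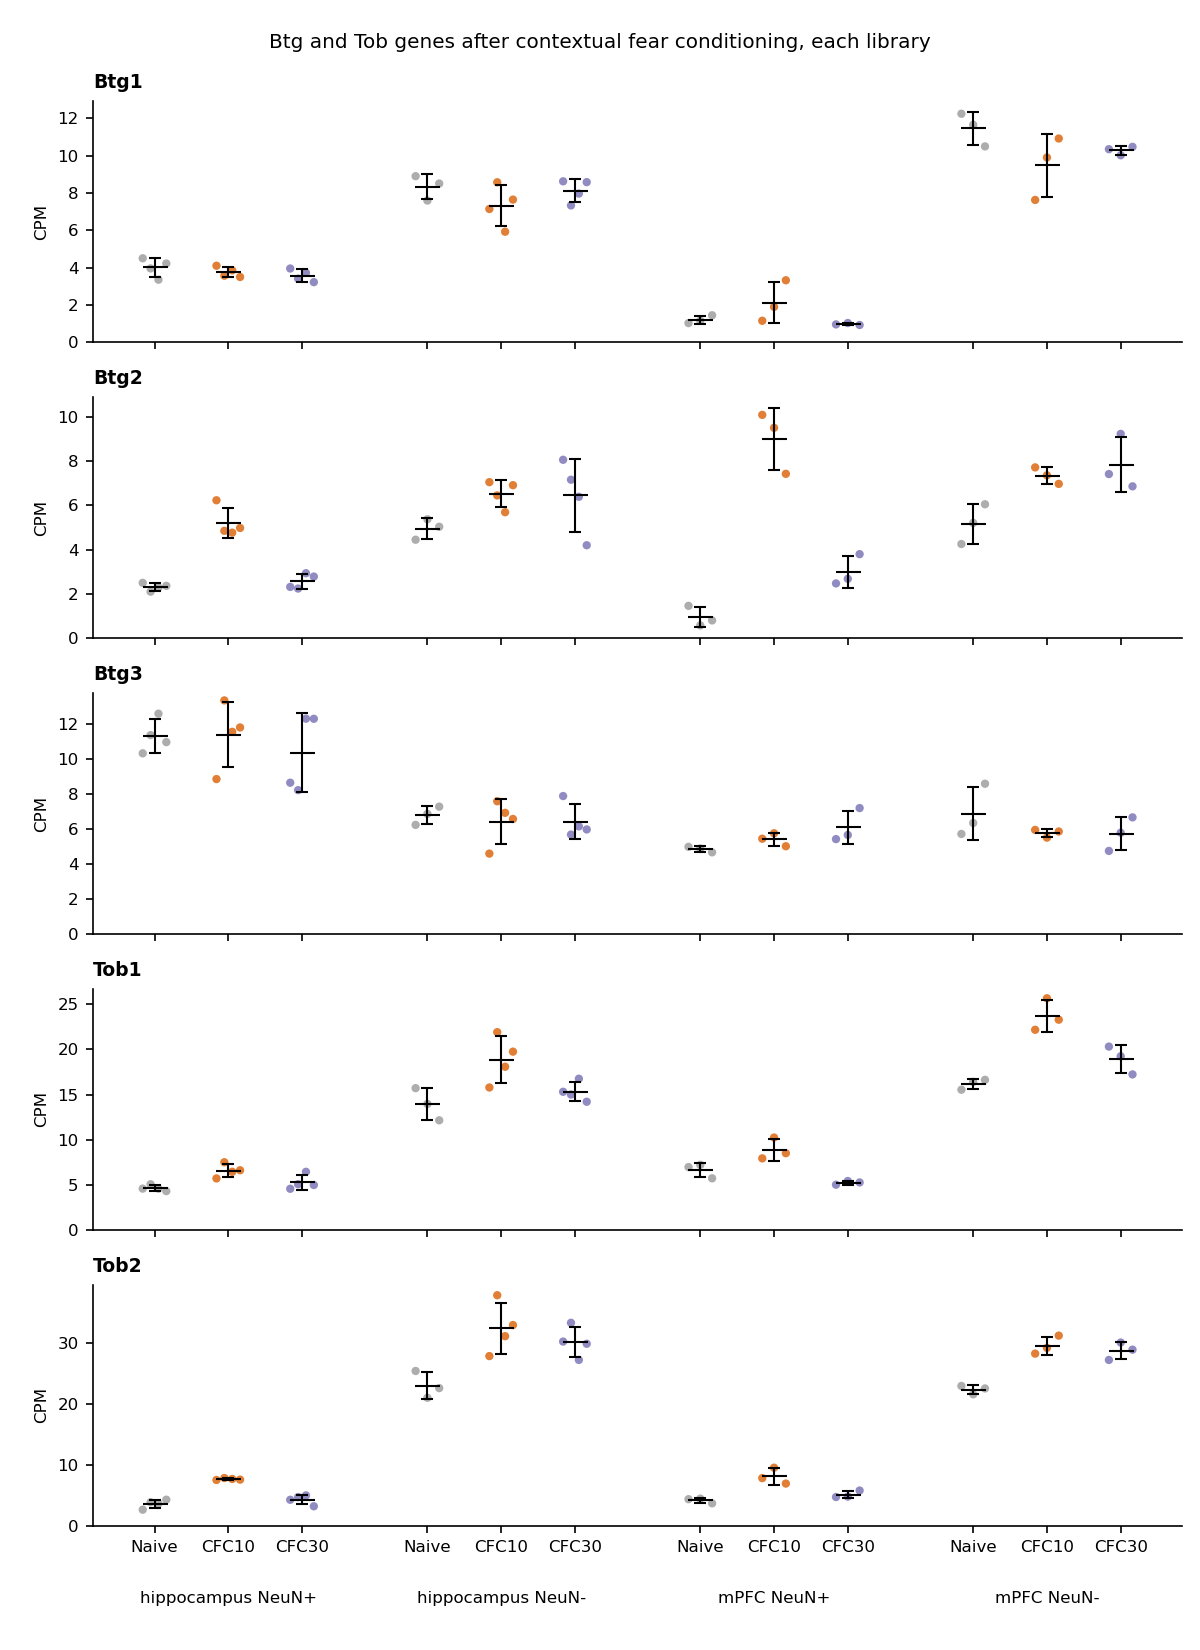
CPM of each Btg and Tob gene (y axis, linear, from 0, 1 panel per gene) in every library of the CFC experiment, grouped on the x axis by region, fraction and time. Points are libraries, long bars the mean and error bars the SD (n = 3 or 4); the *Btg2* libraries at 10 min in mPFC NeuN+ nuclei lie between 7.43 and 10.1 CPM, above all naive ones.

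In non-neuronal nuclei of mPFC *Tob1* and *Tob2* rose by 10 min, and *Tob2* and *Btg2* were higher at 30 min. *Tob1* stood at 15.5, 16.4 and 16.6 CPM in naive NeuN- libraries, 22.2, 25.7 and 23.3 CPM at 10 min and 20.3, 19.2 and 17.2 CPM at 30 min. The 10 min libraries were above all others, with a change of 0.55 ± 0.0948 over naive (adjusted p = 0.0114). At 30 min the libraries were still above the naive range, with a change of 0.25 ± 0.0968 (adjusted p = 0.151). The 10 min call was lost without naive replicate 1, naive replicate 2 or CFC10 replicate 2 (log2 0.50 to 0.56).

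*Tob2* in mPFC NeuN- nuclei stood at 23.0, 21.6 and 22.6 CPM in naive libraries, 28.3, 29.3 and 31.3 CPM at 10 min and 27.3, 30.1 and 29.0 CPM at 30 min. Both later ranges lay above the naive one and overlapped each other. The change was 0.41 ± 0.0815 at 10 min (adjusted p = 0.0235) and 0.39 ± 0.0817 at 30 min (adjusted p = 0.0111). Leaving out naive replicate 1, 2 or 3 or CFC10 replicate 2 or 3 ended the 10 min call (log2 0.36 to 0.43), and leaving out naive replicate 2 ended the 30 min call (0.36).

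*Btg2* in mPFC NeuN- nuclei stood at 4.25, 5.21 and 6.05 CPM in naive libraries, 7.72, 7.36 and 6.97 CPM at 10 min and 7.42, 9.23 and 6.86 CPM at 30 min. Both later ranges were above the naive one. The change was 0.52 ± 0.162 at 10 min (adjusted p = 0.129) and 0.63 ± 0.160 at 30 min (adjusted p = 0.0318). The 30 min call was lost with DESeq2 and without naive replicate 1 or 2 or CFC30 replicate 1 or 2 (log2 0.50 to 0.66). Of the 4 members tested in mPFC NeuN- nuclei, 2 were called at 10 min (1.71% of genes tested) and 2 at 30 min (5.85%). Between 10 and 30 min 0 of 4 were called there by edgeR and 0 by DESeq2, with 1 unadjusted p under 0.05 (*Tob1*, 0.00574), where 0.700% of genes were called.

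In hippocampal NeuN- nuclei no member reached the threshold. *Tob2* came nearest, at 25.5, 21.1 and 22.7 CPM in naive libraries, 27.9, 37.9, 31.2 and 33.0 CPM at 10 min and 30.3, 33.4, 27.3 and 29.9 CPM at 30 min. Both later ranges lay above the naive range, with changes of 0.46 ± 0.101 at 10 min (adjusted p = 0.0713) and 0.39 ± 0.101 at 30 min (adjusted p = 0.0526). *Tob1* stood at 15.7, 14.0 and 12.2 CPM in naive libraries, 15.8, 21.9, 18.1 and 19.8 CPM at 10 min and 15.3, 15.0, 16.8 and 14.2 CPM at 30 min. The naive range overlapped only that at 30 min, and the changes were 0.40 at 10 min and 0.14 at 30 min (adjusted p of 0.131 or above). *Btg2* stood at 4.45, 5.37 and 5.04 CPM in naive libraries, 7.05, 6.45, 5.69 and 6.91 CPM at 10 min and 8.06, 7.16, 6.39 and 4.20 CPM at 30 min. CFC30 replicate 4 lay below the naive range and all other CFC libraries above it, and the changes were 0.35 and 0.38 (adjusted p of 0.312 or above). The count was 0 of 4 members at 10 min (2 with an unadjusted p under 0.05, 1 called by DESeq2), where 0.345% of genes tested were called, and 0 of 4 at 30 min (1 and 1), where 2.38% were. Between the later times it was 0 of 4 (1 unadjusted, 0 by DESeq2), where 0.169% were.

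Whether the changes differed between NeuN- and NeuN+ nuclei was tested as the difference of the changes over naive. In mPFC at 10 min it was -2.71 ± 0.314 for *Btg2* (adjusted p = 5.76e-05), rank 4 in size of 205 genes called in that direction, and 1 of 4 members was called, where 1.88% of genes were. It was -0.54 ± 0.161 for *Tob2* (adjusted p = 0.0889) and -1.07 ± 0.343 for *Btg1* (adjusted p = 0.131). At 30 min it was -1.03 ± 0.343 for *Btg2* (adjusted p = 0.0982, and -1.66 and called without replicate 1) and 0.56 ± 0.165 for *Tob1* (adjusted p = 0.0535), 0 of 4 called by edgeR, 0 by DESeq2 and 2 with an unadjusted p under 0.05, where 4.18% of genes were called. In hippocampus it was -0.82 ± 0.235 for *Btg2* and -0.60 ± 0.170 for *Tob2* at 10 min (adjusted p = 0.294 each). There 0 of 5 members were called at 10 min (2 unadjusted, 0 by DESeq2), where 0.0312% of genes were called, and 0 of 5 at 30 min (0 and 0), where 0.293% were.

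**Figure D2:**
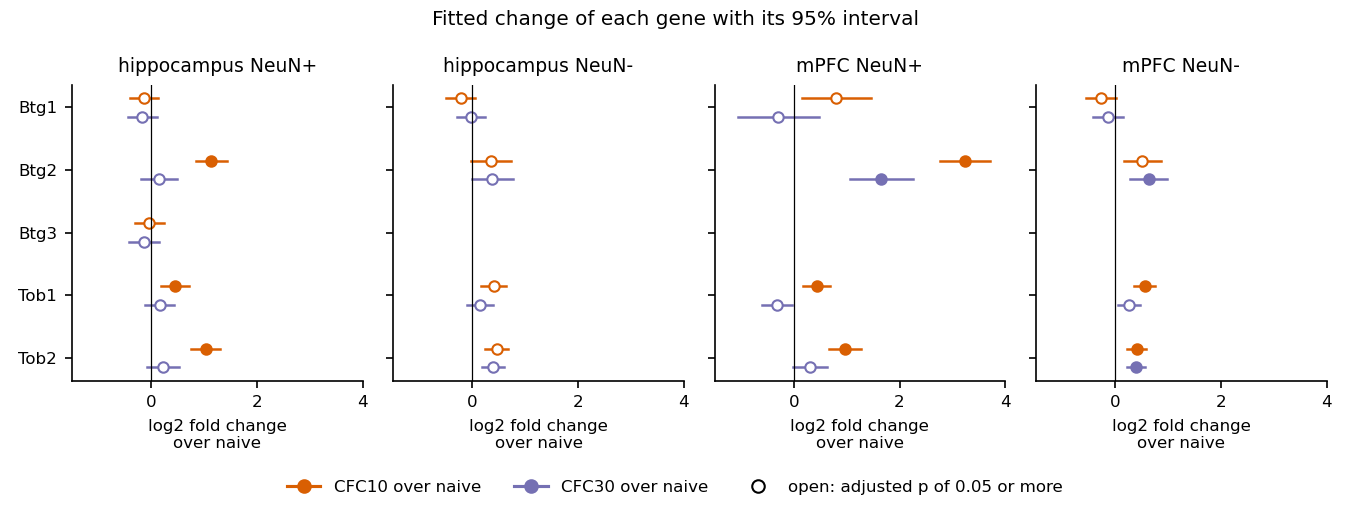
Fitted log2 fold change over naive (x axis) of each Btg and Tob gene (rows) at 10 min and 30 min after CFC, 1 panel per region and fraction, with 95% intervals as lines. Filled points passed an adjusted p of 0.05 and open points did not, and rows without points did not pass the filter; the point for *Btg2* at 10 min in mPFC NeuN+ nuclei, at 3.24, lies farthest from 0.

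Marker levels moved in some of the same comparisons. A list of 7 genes known from striatal neurons summed to 1188 to 1386 CPM at 10 min and 954 to 1065 CPM in naive libraries of hippocampal NeuN+ nuclei, with *Pde10a* the 1 of 3 tested that was called. In mPFC NeuN+ nuclei the list summed to 2127 to 2885 CPM at 10 min and 2506 to 2737 CPM at 30 min, against 1416 to 1579 CPM in naive libraries (1 of 5 tested called at 10 min and 3 of 5 at 30 min). In mPFC NeuN- nuclei it summed to 369 to 712 CPM at 10 min and 795 to 955 CPM at 30 min, against 182 to 192 CPM in naive libraries, with *Pde10a* the 1 of 3 called at each time. The oligodendrocyte list in mPFC NeuN+ nuclei summed to 120 to 156 CPM at 10 min and 64.3 to 86.2 CPM in naive libraries, with *Mbp* the 1 of 2 called (0.87). At 30 min it summed to 118 to 184 CPM, and *Mbp* was again the 1 called (1.15). The astrocyte list in these NeuN+ nuclei summed to 655 to 739 CPM at 10 min and 696 to 706 CPM at 30 min, against 600 to 651 CPM in naive libraries, and *Slc1a2*, the 1 tested, was called higher at both times (0.17 and 0.19). The oligodendrocyte list in mPFC NeuN- nuclei, where *Tob1* and *Tob2* rose, summed to 5458 to 5693 CPM at 10 min. It summed to 5201 to 5652 CPM at 30 min and 4598 to 4970 CPM in naive libraries. Of its 6 genes, 2 were called higher at each time. The oligodendrocyte precursor list there summed to 481 to 577 CPM at 10 min and 525 to 552 CPM at 30 min, against 595 to 648 CPM in naive libraries, and *Cspg4* was called lower at 10 min, 1 of 3 (-0.39). The neuronal list in mPFC NeuN+ nuclei summed to 5954 to 6110 CPM at 30 min and 6145 to 6352 CPM in naive libraries. Of its 6 genes, 3 were called higher and 1 lower at 30 min, and 2 higher at 10 min. The oligodendrocyte list in hippocampal NeuN- nuclei summed to 4997 to 5412 CPM at 30 min and 4574 to 4864 CPM in naive libraries. The striatal list there summed to 307 to 398 CPM at 30 min and 194 to 217 CPM in naive libraries. Called higher there were 1 of 6 and 1 of 3 genes tested. The part of these differences in the member results was not tested. In mPFC NeuN+ nuclei the microglial list summed to 2.32 to 3.33 CPM at 10 min and 1.46 to 3.23 CPM in naive libraries. Its part in the member results was likewise not tested. In mPFC NeuN- nuclei the microglial list summed to 674 to 790 CPM at 10 min and 698 to 841 CPM at 30 min, against 868 to 887 CPM in naive libraries, the 1 of 6 called at each time, *P2ry12*, being lower.

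The wider pathway lists put the members beside their known partners. Of 12 CCR4-NOT subunits and partners, all tested in every fraction, *Tnks1bp1* was called higher in mPFC NeuN+ nuclei at 10 min (0.17, adjusted p = 0.0468), where 14.4% of all genes tested were called. At 30 min *Tnks1bp1* and *Cnot7*, the deadenylase that binds the BTG domain, were called (0.25 and 0.21), where 24.7% of all genes were. No other of the 12 comparisons with naive or saline called a gene of this list by edgeR, and the number with an unadjusted p under 0.05 ran from 0 to 4 in them. The list's medians lay between -0.07 and 0.09 on the log2 scale, where the medians over all genes lay within 0.01 of 0. Among other regulators of poly(A) tails, *Parn*, a deadenylase outside CCR4-NOT, fell in NeuN+ nuclei, by 0.46 in mPFC (log2 fold change -0.46, adjusted p = 0.000102) and 0.20 in hippocampus (-0.20, adjusted p = 0.036) at 10 min. *Pabpc1*, the poly(A)-binding protein that TOB proteins contact, rose in mPFC NeuN+ nuclei by 0.37 at 10 min and 0.44 at 30 min. In all, 2 of the 16 poly(A) genes tested in mPFC NeuN+ nuclei rose and 3 fell at 10 min (14.4% of all genes tested called) and 6 rose and 2 fell at 30 min (24.7%).

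The list of early response genes does not hold *Btg2*. Of its 19 genes tested in hippocampal NeuN+ nuclei, 16 rose and none fell at 10 min (list median 1.36), and of 20 tested in mPFC NeuN+ nuclei 20 rose (median 2.51). Of all genes tested, 4.86% and 14.4% were called in these comparisons. *Arc*, whose protein acts at synapses, rose by 2.2 in hippocampus and 3.82 in mPFC, and *Egr1*, a transcription factor, by 2.25 and 3.04. Between 10 and 30 min in mPFC NeuN+ nuclei 12 of the 20 early response genes fell and 1 rose, the riser being *Homer1* (0.68). There 1.29% of all genes were called. In mPFC NeuN- nuclei 5 of 16 rose at 10 min and 9 of 16 at 30 min, with *Nr4a3*, a nuclear receptor, at 3.77. Of all genes, 1.71% and 5.85% were called there. In hippocampal NeuN- nuclei 1 of 15 rose at 10 min (0.345% of all genes called) and 3 of 15 at 30 min (2.38%). Of the p53 target genes, again a list without *Btg2*, 3 of 13 rose in mPFC NeuN+ nuclei at 10 min, *Plk2* (0.44), *Plk3* (0.95) and the cell cycle inhibitor *Cdkn1a* (1.74), beside 14.4% of all genes called there. At 30 min 4 of 13 rose, beside 24.7% of all genes. In hippocampal NeuN+ nuclei at 10 min edgeR called 0 of 10, with 1 at an unadjusted p under 0.05, and DESeq2 was not counted over this list. The paper counts *Plk2* among early response genes, and *Cdkn1a* is also in the list of glucocorticoid targets. Of the G1 cell cycle genes, the cyclin *Ccnd2* was the 1 called at 10 min in NeuN+ nuclei, of 6 tested in hippocampus (0.31) and of 8 tested in mPFC (0.51).

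Corticosterone was followed by a rise of *Tob2* in astrocytic and 3X- nuclei, a fall of *Btg1* in microglial nuclei and a rise of *Btg3* in neurons. *Tob2* rose in GFAP+ nuclei, with 56.0, 61.5, 55.5 and 55.3 CPM after corticosterone and 30.4, 38, 42.4 and 34.4 CPM after saline. It rose likewise in 3X- nuclei, with 48.7, 63.5, 46.3 and 52.2 CPM after corticosterone and 32.8, 30.9, 32.9 and 36.5 CPM after saline. In both populations every corticosterone library was above every saline library. The fold change was 1.62 in each, log2 0.70 ± 0.0943 in GFAP+ nuclei (adjusted p = 0.00111) and 0.70 ± 0.0909 in 3X- nuclei (adjusted p = 5.8e-07). Per length, mean *Tob2* levels of 5.42 ± 0.281 FPKM in GFAP+ and 5.01 ± 0.724 FPKM in 3X- nuclei after corticosterone stood against 3.45 ± 0.486 and 3.16 ± 0.222 FPKM after saline (SD, n = 4).

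In NeuN+ nuclei *Tob2* held 6.89, 5.23, 5.04 and 3.72 CPM after corticosterone and 5.19, 6.12, 4.79 and 6.92 CPM after saline, and in PU.1+ nuclei 21.5, 21.6, 19.7 and 20.3 CPM after corticosterone and 16.1, 22.4, 19.5 and 21.8 CPM after saline. The ranges overlapped, with changes of -0.12 (95% interval -0.44 to 0.21) and 0.09 (-0.12 to 0.31). The change in GFAP+ minus that in NeuN+ nuclei was 0.80 ± 0.198 (adjusted p = 0.045), and in 3X- minus NeuN+ nuclei 0.79 ± 0.198 (adjusted p = 0.0197). *Tob2* was the 1 of 5 members called in each, where 0.513% and 2.00% of genes were called. Both calls were lost without replicate 2 and without replicate 4 (log2 0.54 to 0.79 and 0.58 to 0.64). For PU.1+ minus NeuN+ nuclei 0 of 5 were called by edgeR and 0 by DESeq2, with 1 unadjusted p under 0.05, where 1.54% of genes were called.

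*Btg1* fell in microglial nuclei, with 11.9, 12.6, 10.5 and 11 CPM after corticosterone and 18.4, 15.2, 17.2 and 16.2 CPM after saline. No library overlapped, and the ratio was 0.703 (log2 -0.51 ± 0.0994, adjusted p = 0.00365). *Btg2*, the leading member of these nuclei, held 22.4, 23.4, 24.9 and 24.2 CPM after corticosterone and 24.7, 24.5, 23.5 and 24.9 CPM after saline, a change of -0.01 (95% interval -0.16 to 0.15). In GFAP+ nuclei *Btg1* held 11, 15.6, 13.9 and 16.5 CPM after corticosterone and 12, 11.1, 13.9 and 13.4 CPM after saline, overlapping, with a change of 0.22 (adjusted p = 0.561).

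*Btg3* rose in NeuN+ nuclei, with 13.7, 13.5, 12.5 and 16.7 CPM after corticosterone and 8.57, 12.9, 11 and 8.10 CPM after saline. The ranges overlapped at saline replicate 2. The change was 0.50 ± 0.115 (adjusted p = 0.00528), a call lost without saline replicate 4 or cort replicate 4 (log2 0.40 to 0.42). It was 0.02 in PU.1+ nuclei (adjusted p = 0.973), and the tested differences between populations ranged from -0.41 to -0.51 with adjusted p of 0.406 or above. *Tob1* in 3X- nuclei held 15.3, 16.5, 17.8 and 16.3 CPM after corticosterone and 23.4, 17.5, 19.2 and 21.6 CPM after saline, with a change of -0.26 ± 0.106 (adjusted p = 0.154) and ranges that overlapped at cort replicate 3 and saline replicate 2.

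Each population thus had 1 member called after corticosterone: 1 of 5 in NeuN+ nuclei (2.06% of genes tested), 1 of 4 in GFAP+ nuclei (2.93%), 1 of 5 in PU.1+ nuclei (7.81%) and 1 of 4 in 3X- nuclei (7.48%). *Btg2* was called in none of the 4, with changes from -0.15 to 0.40 and adjusted p of 0.431 or above.

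**Figure D3:**
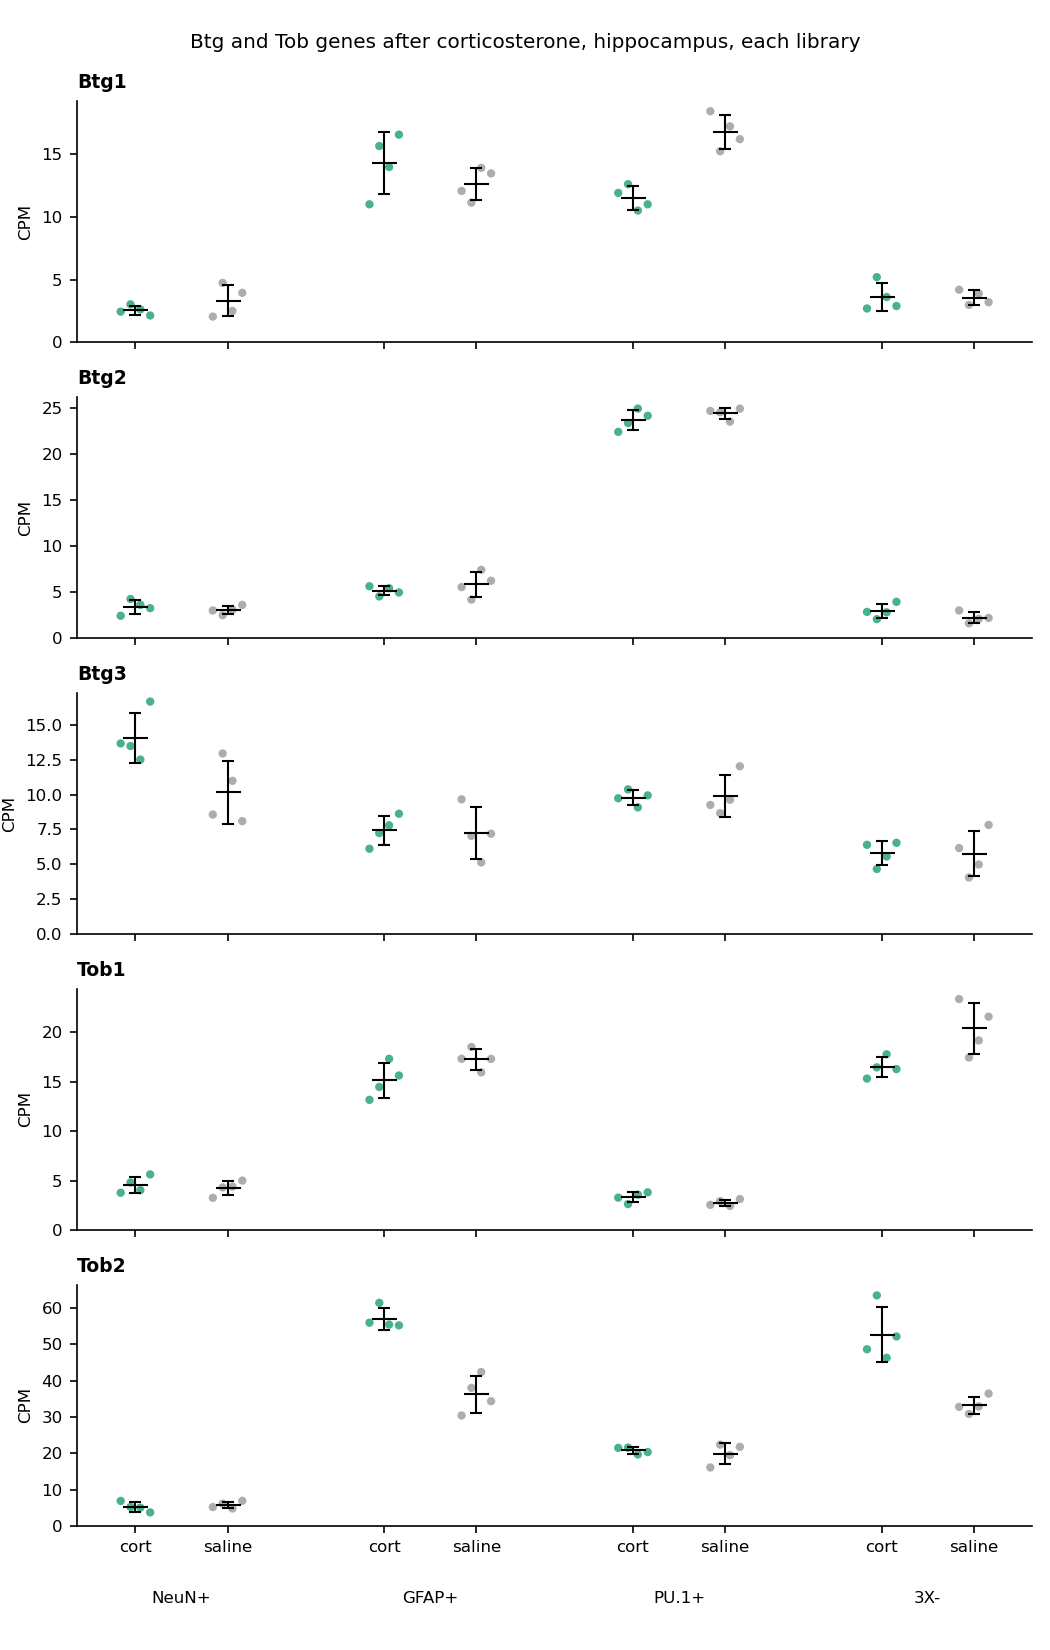
CPM of each Btg and Tob gene (y axis, linear, from 0, 1 panel per gene) in every hippocampal library of the hormone experiment, with corticosterone (cort) left of saline in each sorted population on the x axis. Points are libraries, long bars the mean and error bars the SD (n = 4); *Tob2* lies between 55.3 and 61.5 CPM in cort GFAP+ libraries and between 30.4 and 42.4 CPM in saline ones.

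Known glucocorticoid targets rose in the same nuclei, 11 of 14 tested in GFAP+, 10 of 13 in PU.1+ and 11 of 14 in 3X- nuclei, and 4 of 10 in NeuN+ nuclei, where *Per1* fell. Of all genes tested, 2.93% were called in GFAP+, 7.81% in PU.1+, 7.48% in 3X- and 2.06% in NeuN+ nuclei. *Fkbp5*, a co-chaperone of the glucocorticoid receptor, changed by 2.06 in GFAP+, 2.44 in PU.1+, 2.05 in 3X- and 0.55 in NeuN+ nuclei. The p53 target *Cdkn1a*, which is also in the glucocorticoid list, rose by 1.88, 0.89 and 4.28 in GFAP+, PU.1+ and 3X- nuclei. The 18 regulators of poly(A) tails were all tested in glial populations. Of them 1 rose and 2 fell in GFAP+ nuclei, where 2.93% of all genes were called. In PU.1+ nuclei 2 rose (7.81% of all genes), and in 3X- nuclei 1 rose and 1 fell (7.48%). The gene *Zfp36*, which recruits CCR4-NOT to AU-rich mRNAs, rose by 0.97 in GFAP+ and 1.41 in 3X- nuclei, and *Zfp36l1* was at -0.79 and -0.66 there and at 0.52 in PU.1+ nuclei. In PU.1+ nuclei, where *Btg1* fell, 2 of 6 microglial markers rose and 3 fell (*Spi1* at -0.53), the list summing to 4398 to 4658 CPM after corticosterone and 4637 to 5014 CPM after saline. The gene *Spi1* encodes PU.1 itself, the antigen of the sort. The astrocyte list summed to 919 to 1179 CPM after corticosterone and 634 to 857 CPM after saline in these nuclei, with 2 of 6 called higher. In 3X- nuclei 3 of 3 oligodendrocyte precursor markers rose (1133 to 1381 CPM after corticosterone, 926 to 1119 CPM after saline). The oligodendrocyte list in 3X- nuclei summed to 10092 to 11242 CPM after corticosterone and 9350 to 9860 CPM after saline, with no overlap, 1 of 6 being called higher (*Mobp* at 0.80) and 1 lower (*Mog* at -0.25). Also called higher in 3X- nuclei were the microglial marker *Csf1r* (0.70, 1 of 3 tested), the neuronal marker *Rbfox3* (0.31, 1 of 5) and the mural cell marker *Rgs5* (0.49, 1 of 3). In GFAP+ nuclei 1 of 6 astrocyte markers rose (12194 to 13346 CPM after corticosterone, 11219 to 14154 CPM after saline). The part of these marker differences was not tested.

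Across both experiments the genes whose group means ran most like each member were found among 9743 genes tested in all 12 comparisons with naive or saline. The measure was Pearson's r over 20 groups, on log2(CPM + 0.5) centred within each fraction or population, given as a description. It compares the shape of the group means and not the size of their changes, and it was not tested. For *Btg2* they were *Junb* (0.944), a subunit of AP-1, *Ppp1r15a* (0.926), a phosphatase subunit of the stress response, and *Arc* (0.921). In PU.1+ nuclei *Junb* changed by -0.72 after corticosterone (adjusted p = 0.0024) and *Btg2* by -0.01. For *Tob2* they were *Zfp251* (0.912), *Ackr3* (0.905), a chemokine receptor, and *Pim3* (0.877), a kinase. For *Tob1* they were *2810002D19Rik* (0.928), *Odc1* (0.926), the first enzyme of polyamine synthesis, and *Pgam1* (0.925), a glycolytic enzyme. For *Btg1* the values were lower, with *Satb1* at 0.797, *Abhd17c* at 0.766 and *Mfsd12* at 0.755. *Btg3* was not tested in every fraction and was not ranked.

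**Figure D4:**
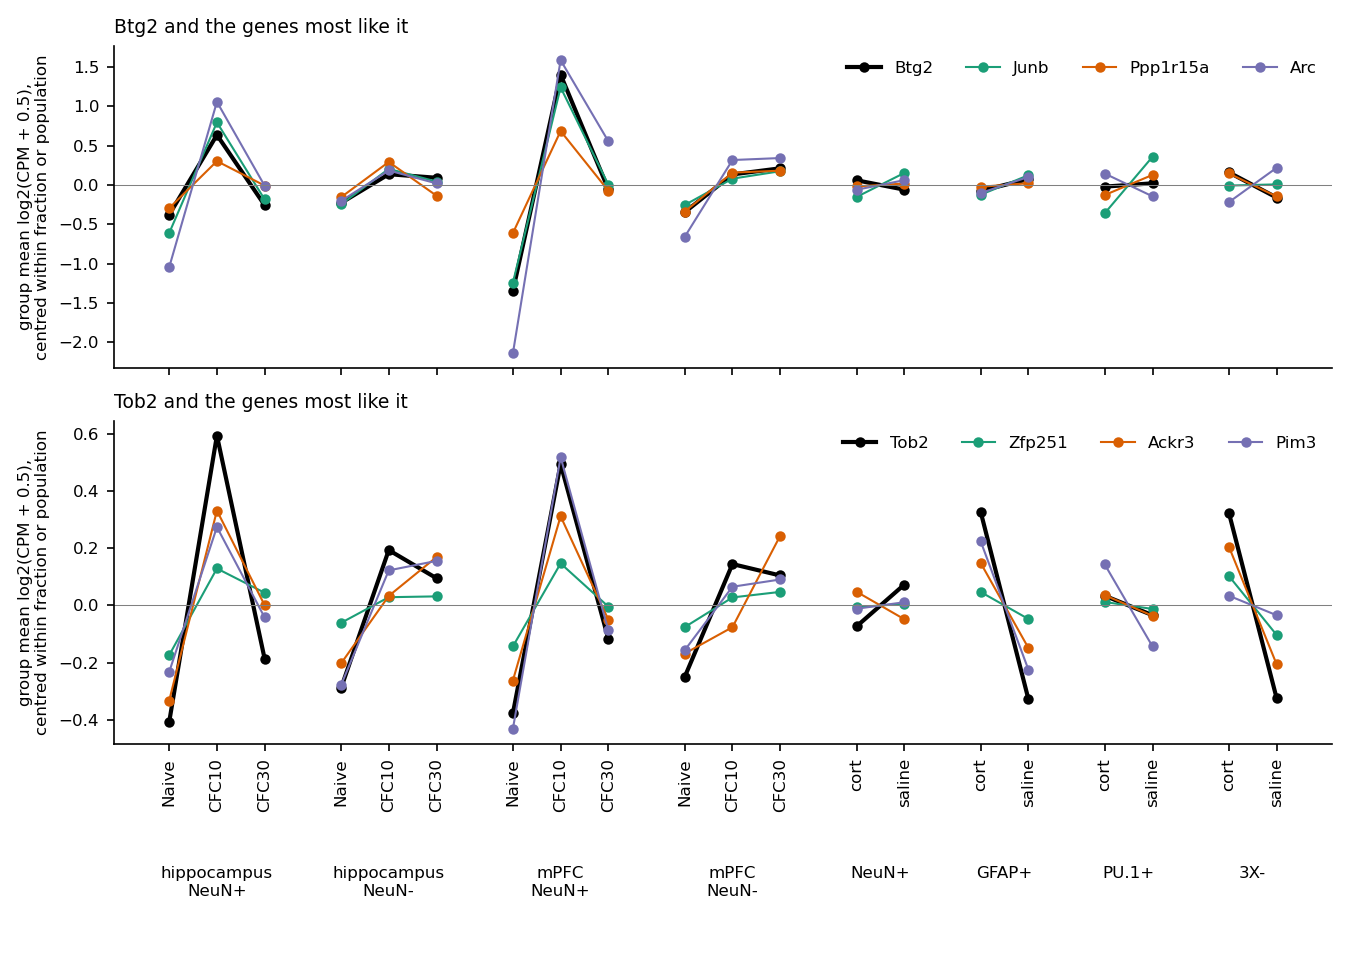
Group means of log2(CPM + 0.5), centred within each region and fraction or sorted population (y axis), for *Btg2* and for *Tob2* (black, 1 panel each) and the 3 genes whose course was most like each (colours), over the 20 groups on the x axis. *Btg2*, *Junb*, *Ppp1r15a* and *Arc* share the peak at 10 min in NeuN+ nuclei, and in PU.1+ nuclei *Junb* is lower after corticosterone while *Btg2* stays near 0.

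γH2AX, the phosphorylated histone that marks DNA double-strand breaks, was profiled with ChIP-seq in tissue of hippocampus and of mPFC, and the peak lists name regions with no height. Of the 5 genes, *Tob1* lay under a peak in both regions and *Btg1*, *Btg2*, *Btg3* and *Tob2* lay under none of the 282 hippocampal and 260 mPFC peaks in the lists used here. These lists may not hold every γH2AX peak, so a gene outside them is not read as one without a peak. The hippocampal peak at chr11:94210457-94217327 covered 100% of *Tob1* and ran 997 bp beyond its 5′ end and 1832 bp beyond its 3′ end. The mPFC peak at chr11:94210507-94217474 did the same, by 947 and 1979 bp. Both are narrow for their lists, at 6871 and 6968 bp against medians of 15425 and 16504 bp. The lists join peaks of naive and CFC tissue and come from whole tissue, so they give neither the condition nor the cell type in which the *Tob1* peak arose.

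**Figure D5:**
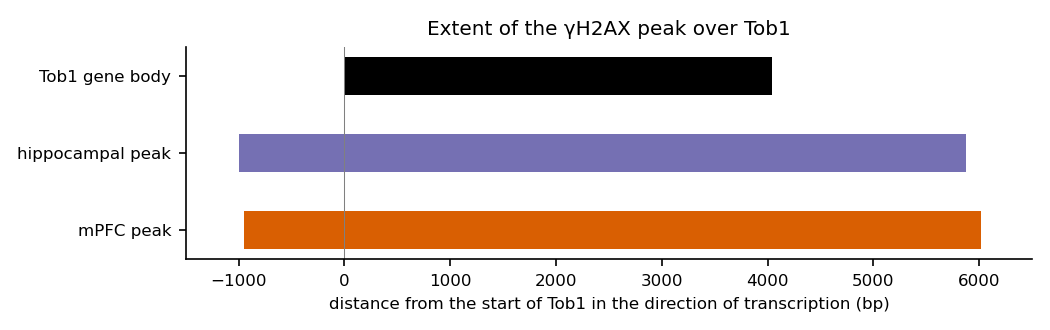
Extent of the *Tob1* gene body (black) and of the γH2AX peak over it in hippocampus (purple) and mPFC (orange), on the x axis as distance in bp from the start of *Tob1* in the direction of transcription. The gene spans 4042 bp, and both peaks begin upstream of it and end downstream of it.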

How the data were processed

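The deposited gene tables hold read counts, which the authors made from trimmed reads (Trimmomatic) aligned to GRCm38 with HISAT2, with duplicates removed by Picard, sorting by SAMtools and counting over gene bodies by featureCounts. Versions and the strand setting are not given in the sources used here. The deposited γH2AX peak lists are positions on mm10 (GRCm38) with no values, joined over naive and CFC tissue by the authors. Of 53749 gene identifiers, 53682 matched a GENCODE vM21 gene model and 67 did not. The 5 members, the marker and pathway lists and the tests were chosen with earlier results of these data known.

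Each comparison used edgeR 4.0.16 (R 4.3.3): TMM scaling, genes with a mean above 0.2 FPKM in at least 1 group, a quasi-likelihood fit and Benjamini-Hochberg adjustment over all genes tested, called at an adjusted p under 0.05. Fits held the 3 times of 1 region and fraction, or the 2 treatments of 1 population. Joint fits gave differences of changes, and 35 comparisons were made. Fits across fractions or populations did not model animals that these may share. Intervals are 95% intervals. Named genes were all members, listed pathway genes that were called, up to 4 per list and comparison by adjusted p, and the 3 genes most like each member. The marker genes *Pde10a*, *Mbp*, *Slc1a2*, *Cspg4*, *P2ry12*, *Spi1*, *Mobp*, *Mog*, *Csf1r*, *Rbfox3* and *Rgs5* were named after their values were seen. Scripts ran in Python 3.11.15 with pandas 2.3.3, scipy 1.17.1 and matplotlib 3.10.9, and were tested on simulated data. Alternatives were DESeq2 1.42.0, DESeq2 size factors, no filter, a replicate block and leaving out each library. Of 74 RNA libraries 1 was a repeat of another and was left out, so 73 were used. The precision of each value is limited by the reads behind it, which ran down to 7 for *Btg2*.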

Additional observations from a re-analysis of the deposited data

Results flagged for a closer look

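*Btg2* at 10 min in hippocampal NeuN+ nuclei had 1 library apart from the other 3, at 6.23 CPM, and *Tob2* in GFAP+ nuclei after corticosterone had 1 at 61.5 CPM. These were 2 of 65 groups of member values examined for a lone library, and chance picks about 1 in 20 such groups.

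For *Btg2*, the change over naive at 10 min in mPFC differed between NeuN- and NeuN+ nuclei by -2.71 on the log2 scale. Its change in NeuN+ nuclei differed between mPFC and hippocampus by 2.08 at 10 min and 1.5 at 30 min, where region and kit version cannot be told apart. For *Tob2*, the change after corticosterone in GFAP+ nuclei exceeded that in NeuN+ nuclei by 0.80, and that in 3X- nuclei exceeded it by 0.79. Each passed the edgeR test of the difference itself after Benjamini-Hochberg adjustment.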

How the results depend on the processing

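Of 59 called member values, 243 of 247 values under the tool, scaling, filter and block alternatives and 300 of 342 values with 1 library left out kept direction and call, and the others kept direction only. DESeq2 ended the calls of *Tob1* at 10 min in hippocampal NeuN+ nuclei (0.46, adjusted p = 0.0578) and mPFC NeuN+ nuclei (0.42, 0.115), of *Tob2* between 10 and 30 min in mPFC NeuN+ nuclei (-0.65, 0.0715) and of *Btg2* at 30 min in mPFC NeuN- nuclei (0.63, 0.0548). Over all alternatives, libraries left out included, their adjusted p ran from 0.0213 to 0.0949, 0.0119 to 0.149, 0.000871 to 0.178 and 0.0119 to 0.157, in that order. The cause was not tested. Precision is limited by reads, down to 7 per library for *Btg2*.

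The number of members called moved as follows. In hippocampal NeuN- nuclei it was 1 with DESeq2 and 2 with no filter at 10 min, and 1 with either at 30 min, against 0 each. In mPFC NeuN- nuclei at 30 min it was 1 with DESeq2, against 2. With no filter it was 2, against 1, in 3X- nuclei after corticosterone and for the 10 min change in NeuN- minus NeuN+ nuclei of mPFC. For the 30 min change there it was 1 with DESeq2 size factors, with the replicate block and with a block within condition, against 0, the call being *Tob1* (0.57, 0.57 and 0.56). The block within condition was chosen after seeing the data. Smaller moves are not counted here, such as the calls of *Btg1* with no filter in mPFC NeuN+ nuclei at 10 min and between 10 and 30 min. Leaving out each library gave 0 to 1 members called in hippocampal NeuN- nuclei at 10 and at 30 min, 1 to 2 in mPFC NeuN+ nuclei at 30 min and 1 to 4 between 10 and 30 min, and 0 to 2 in mPFC NeuN- nuclei at 10 and at 30 min. It gave 0 to 1 in NeuN+ nuclei after corticosterone, for the 30 min change in NeuN- minus NeuN+ nuclei of mPFC, for the 30 min change of NeuN+ nuclei in mPFC minus hippocampus, and for the corticosterone changes in GFAP+ and in 3X- minus NeuN+ nuclei.

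Values not called and near 0 changed sign under some alternatives. With no filter *Btg1* in 3X- nuclei after corticosterone was -0.016 and *Tob2* for the 30 min change in mPFC minus hippocampus for NeuN- nuclei -0.014, and with a block within condition *Tob1* for the 30 min change in NeuN- minus NeuN+ nuclei of hippocampus was 0.0068. Leaving out 1 library gave log2 ranges across 0. For *Btg1* these ranges were -0.091 to 0.0021 for hippocampal NeuN+ nuclei between 10 and 30 min, -0.10 to 0.017 for hippocampal NeuN- nuclei at 30 min, -0.12 to 0.16 for 3X- nuclei after corticosterone, -0.26 to 0.064 for the 10 min change in NeuN- minus NeuN+ nuclei of hippocampus, -0.12 to 0.29 for the 30 min change in NeuN- minus NeuN+ nuclei of mPFC, -0.23 to 0.14 for the 30 min change in mPFC minus hippocampus for NeuN+ nuclei, -0.32 to 0.080 for the 10 min change in mPFC minus hippocampus for NeuN- nuclei and -0.38 to 0.089 for saline 3X- against NeuN+ nuclei. For *Btg2* these ranges were -0.095 to 0.18 for hippocampal NeuN- nuclei between 10 and 30 min, -0.012 to 0.20 for mPFC NeuN- nuclei between 10 and 30 min, -0.030 to 0.017 for PU.1+ nuclei after corticosterone, -0.079 to 0.41 for the 30 min change in NeuN- minus NeuN+ nuclei of hippocampus, -0.27 to 0.035 for the corticosterone change in PU.1+ minus NeuN+ nuclei and -0.051 to 0.43 for the corticosterone change in 3X- minus NeuN+ nuclei. For *Btg3* these ranges were -0.11 to 0.075 for hippocampal NeuN+ nuclei at 10 min, -0.039 to 0.12 for PU.1+ nuclei after corticosterone and -0.18 to 0.19 for the 30 min change in NeuN- minus NeuN+ nuclei of hippocampus. For *Tob1* these ranges were -0.0084 to 0.19 for NeuN+ nuclei after corticosterone, -0.16 to 0.0034 for the 10 min change in NeuN- minus NeuN+ nuclei of hippocampus, -0.061 to 0.017 for the 30 min change in NeuN- minus NeuN+ nuclei of hippocampus, -0.11 to 0.013 for the 10 min change in mPFC minus hippocampus for NeuN+ nuclei, -0.058 to 0.33 for the 30 min change in mPFC minus hippocampus for NeuN- nuclei and -0.010 to 0.34 for the corticosterone change in PU.1+ minus NeuN+ nuclei. For *Tob2* these ranges were -0.13 to 0.0011 for hippocampal NeuN- nuclei between 10 and 30 min, -0.044 to 0.027 for mPFC NeuN- nuclei between 10 and 30 min, -0.28 to 0.024 for NeuN+ nuclei after corticosterone, -0.028 to 0.33 for the 30 min change in NeuN- minus NeuN+ nuclei of hippocampus, -0.068 to 0.24 for the 30 min change in NeuN- minus NeuN+ nuclei of mPFC, -0.19 to 0.062 for the 10 min change in mPFC minus hippocampus for NeuN+ nuclei, -0.11 to 0.26 for the 30 min change in mPFC minus hippocampus for NeuN+ nuclei, -0.14 to 0.065 for the 10 min change in mPFC minus hippocampus for NeuN- nuclei, -0.035 to 0.050 for the 30 min change in mPFC minus hippocampus for NeuN- nuclei and -0.020 to 0.13 for saline GFAP+ against 3X- nuclei.

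Counts of all genes called that moved by over 1.5 times were 604 in hippocampal NeuN+ nuclei at 10 min (1032 with no filter), 37 in hippocampal NeuN+ nuclei between 10 and 30 min (96 with no filter), 51 in hippocampal NeuN- nuclei at 10 min (181 with DESeq2, 514 with no filter, 180 with the replicate block), 352 in hippocampal NeuN- nuclei at 30 min (917 with no filter, 600 with the replicate block), 25 in hippocampal NeuN- nuclei between 10 and 30 min (74 with DESeq2, 213 with no filter), 167 in mPFC NeuN+ nuclei between 10 and 30 min (111 with DESeq2, 375 with no filter) and 254 in mPFC NeuN- nuclei at 10 min (751 with no filter). They were also 870 in mPFC NeuN- nuclei at 30 min (1486 with no filter), 104 in mPFC NeuN- nuclei between 10 and 30 min (514 with no filter), 261 in NeuN+ nuclei after corticosterone (167 with DESeq2, 396 with the replicate block), 425 in GFAP+ nuclei after corticosterone (711 with no filter), 1091 in 3X- nuclei after corticosterone (2782 with no filter), 5 in the 10 min change in NeuN- minus NeuN+ nuclei of hippocampus (24 with DESeq2, 71 with no filter, 3 with the replicate block, 1 with a block within condition) and 47 in the 30 min change in NeuN- minus NeuN+ nuclei of hippocampus (114 with DESeq2, 191 with no filter, 22 with a block within condition). The last were 311 in the 10 min change in NeuN- minus NeuN+ nuclei of mPFC (664 with no filter), 97 in the 10 min change in mPFC minus hippocampus for NeuN+ nuclei (294 with no filter), 317 in the 30 min change in mPFC minus hippocampus for NeuN+ nuclei (590 with no filter), 0 in the 10 min change in mPFC minus hippocampus for NeuN- nuclei (13 with DESeq2, 167 with no filter), 16 in the 30 min change in mPFC minus hippocampus for NeuN- nuclei (53 with no filter) and 371 in the corticosterone change in 3X- minus NeuN+ nuclei (666 with no filter). Leaving out a library moved 77 of 228 such counts by over 1.5 times. Requiring 50% overlap left the peaks over members as they were.

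The labels do not say that a replicate number marks a shared animal, and since not every same-numbered pair correlated above 0.1 the numbers were not used as a pairing. That rule cannot exclude a pairing. Deviations of same-numbered libraries of 1 fraction had correlations of -0.345 to 0.50, over 0.1 in 15 of 40, and 20 of 40 libraries were most like their own number. Between fractions of 1 condition the correlation was over 0.1 in 6 of 20 pairs (median 0.0695, against -0.026 for other numbers) and 12 of 20 libraries were most like their own number. Between populations of 1 treatment it was over 0.1 in 15 of 48 (median 0.0755, against -0.018) and 36 of 48 were, a hint of pairing by number. The paper describes fractions and populations as gated from the same stained nuclei, so libraries of 1 condition probably share animals. The tests between fractions or populations took these libraries as independent. Beside the changes given above, the replicate block ended no call of a member.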

Other observations

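The oocyte gene *Btg4* (ENSMUSG00000032056) had reads in 65 of 73 libraries, with 0 to 14 reads per library. Its highest group mean, in 3X- nuclei after corticosterone, was 0.0203 FPKM, or 1.2 ± 0.753 CPM (SD, n = 4), against 0.321 ± 0.0343 CPM in 3X- nuclei after saline. It did not pass the filter on low values in any comparison. The pseudogene models *Btg1-ps1* and *Btg1-ps2*, to which reads of *Btg1* could map, had reads in 2 and 5 of the 73 libraries.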
